A study of Mus musculus with 8 samples.

Results

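The immediate early and AP-1 genes examined here were Fos, Fosb, Jun, Junb, Jund, Egr1, Egr3, Ier2, Dusp1 and Atf3, chosen by name as a readout of cell activation or handling. Each of the 10 symbols matched 1 Ensembl identifier of the 54532 genes in the deposited count table, and all 10 passed the filter on low counts that left 15305 genes for testing. Total bone marrow B cells were compared between ovariectomized mice (OVX, 3 libraries), a model of estrogen deficiency, and sham-operated mice (Sham, 3 libraries). The cells of both groups were purified with magnetic beads. The labels give no strain, genotype or age for the RNA libraries, and the sources used here do not state the time from surgery to harvest or whether each library came from a separate mouse. The p-values therefore measure the spread between libraries, which may be technical. In bulk RNA, fewer cells of a type and less RNA per cell cannot be told apart.

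Immediate early genes are transcribed within minutes of a stimulus without the need for newly made protein, and their transcripts are short-lived. FOS and JUN family proteins pair through leucine zippers to form AP-1, a transcription factor that binds DNA as a dimer. EGR1 and EGR3 are zinc finger transcription factors, IER2 is a nuclear protein, DUSP1 is a phosphatase that switches off MAP kinases, and ATF3 is a stress-induced leucine zipper protein that can pair with JUN. In B cells these genes respond to engagement of the antigen receptor, and they also respond to the dissociation and warming of tissue while cells are isolated.

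Promoter sequences are shown because several of these genes varied together between libraries. Whether promoter sequence bears on this was not tested. The promoter table used here, made from RefSeq (GRCm38.p6, the assembly that mm10 of the labels denotes), held an entry for 7 of the 10 genes, all but Egr1, Egr3 and Ier2. The 250 bases before each start were searched on both strands. The core TGACG of the cyclic AMP response element, the site of the CREB and ATF factors, was present in 5 of the 7, namely Fos, Fosb, Junb, Dusp1 and Atf3, and in 17.8% of the 32851 promoters of the table. In the sequences below, each from 5′ to 3′ on the strand of its gene, capitals mark TGACG or its reverse complement. Fos lies on the plus strand and the window spans chr12:85473640-85473889. The windows of the other genes lie on the minus strand, Junb at chr8:84978749-84978998, Dusp1 at chr17:26508473-26508722 and Atf3 at chr1:191183334-191183583. For Fosb only the 30 bases around the core are given, chr7:19310088-19310117, since other RefSeq transcripts of the gene start further upstream. These bases lie inside the RefSeq span of Fosb, which reaches 19310118. The Fosb core is thus upstream of the start used here but downstream of the outermost start.
Fos: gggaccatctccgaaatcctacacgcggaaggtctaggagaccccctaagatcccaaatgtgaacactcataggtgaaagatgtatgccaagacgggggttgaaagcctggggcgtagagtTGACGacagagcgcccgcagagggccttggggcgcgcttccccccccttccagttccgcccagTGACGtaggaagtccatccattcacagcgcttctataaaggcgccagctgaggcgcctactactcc
Fosb: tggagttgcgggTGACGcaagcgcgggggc
Junb: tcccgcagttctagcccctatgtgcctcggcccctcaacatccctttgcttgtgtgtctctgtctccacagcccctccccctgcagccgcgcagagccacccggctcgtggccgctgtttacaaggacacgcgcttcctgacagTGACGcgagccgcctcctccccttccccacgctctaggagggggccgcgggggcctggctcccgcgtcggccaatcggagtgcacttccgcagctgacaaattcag
Dusp1: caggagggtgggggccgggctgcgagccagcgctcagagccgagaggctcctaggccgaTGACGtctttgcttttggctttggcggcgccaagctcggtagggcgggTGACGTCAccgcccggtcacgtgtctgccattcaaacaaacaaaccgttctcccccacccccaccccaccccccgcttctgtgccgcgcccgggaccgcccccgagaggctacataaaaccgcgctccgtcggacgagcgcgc
Atf3: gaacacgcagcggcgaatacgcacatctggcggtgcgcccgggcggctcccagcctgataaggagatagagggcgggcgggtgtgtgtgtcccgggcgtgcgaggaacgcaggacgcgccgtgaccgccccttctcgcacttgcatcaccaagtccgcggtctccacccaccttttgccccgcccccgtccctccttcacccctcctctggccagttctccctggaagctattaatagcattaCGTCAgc

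Fos carried the core at 129 and 66 bases before its start and a TATA box (TATAAA) at 33 bases, where 12.4% of all promoters held this TATA box. Dusp1 carried the full palindrome TGACGTCA, which contains the core on both strands, at 143 bases before its start, and 1.55% of all promoters held it. The AP-1 site TGANTCA (6.75% of all promoters) and the CArG box, the serum response factor site (1.47%), were in none of the 7 windows. With sites this rare, none in 7 short windows says little. Sites further upstream were not searched, and neither were Egr1, Egr3 and Ier2, so the genes cannot be said to lack them. The hypoxia response core ACGTG was found in Jund and Dusp1 and in 16.6% of all promoters. A match is a description of letters and not of binding, and the window of Jund lies at the outermost of its RefSeq starts.

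Between 23838775 and 33136701 reads were counted per library, and the libraries of each group differed from each other by far more than sampling noise. The chi-square per degree of freedom, a measure of this excess over genes with a mean of at least 10 counts, was 34.45 to 58.15 within Sham. Within OVX it was 16.53 to 25.9. Sham replicate 1 was closer to the OVX libraries, at 9.28 to 12.96, so its likeness to them was not particular to the 10 genes. OVX replicate 1 was at 18.63 to Sham replicate 3 and 42.22 to Sham replicate 2. The 12 general B cell genes held 0.949% to 1.06% of the reads, and Cd79a and Pax5 were abundant in every library, at 1548 to 1883 and 1195 to 1329 CPM (reads relative to the library total, scaled by edgeR's TMM factors). Markers of other cells were unequal. The 18 neutrophil genes took 0.269%, 0.374% and 1.03% of the reads in the Sham libraries (here and below in the order of replicates 1, 2, 3), against 0.436%, 0.117% and 0.127% in the OVX libraries, and all 18 had a log2 fold change below 0. The 10 genes of pro-B and pre-B cells, Rag1 among them, took 0.352%, 0.190% and 0.247% in Sham and 0.290%, 0.360% and 0.367% in OVX, and 9 of the 10 had a log2 fold change above 0. The 10 genes of mature B cells took 1.00% in Sham replicate 2 and 0.463% to 0.575% in the other libraries. Cd3e, a defining T cell marker, was at 0.0908 to 1.29 CPM.

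The 10 immediate early genes together took 0.0743%, 0.0934% and 0.0954% of the reads in Sham, against 0.0995%, 0.0738% and 0.0664% in OVX. The highest and the lowest share were both in OVX. The mean was 0.0799% ± 0.0174 in OVX and 0.0877% ± 0.0117 in the Sham libraries (SD, n = 3 each), a difference within the spread of the libraries (exact permutation test, two-sided p = 0.6, and with 3 libraries a side 0.1 is the smallest p possible). The 95% exact binomial interval of a single share was narrow, from 0.0982% to 0.101% in OVX replicate 1, so counting error was far below the differences between libraries.

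**Figure D1:**
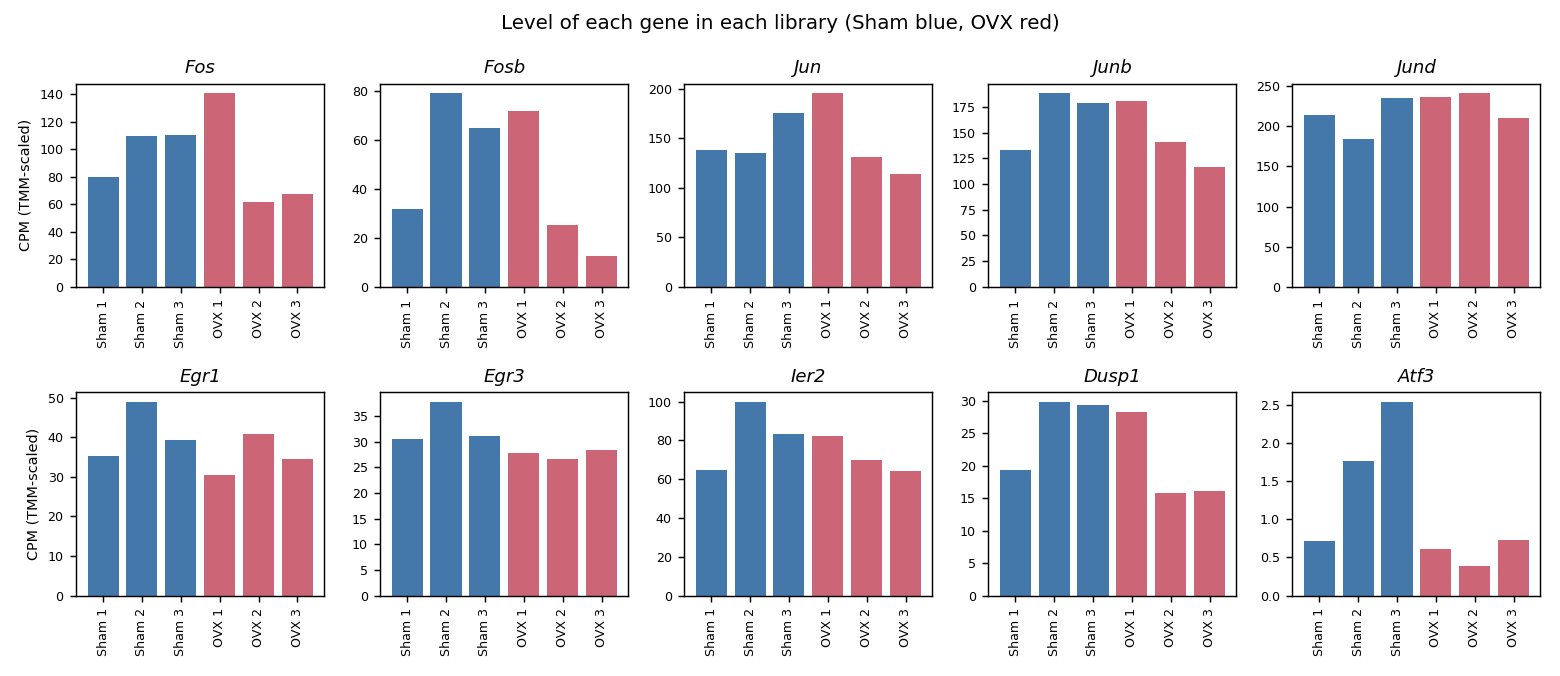
Level of each of the 10 genes in each library, as a bar per library in TMM-scaled CPM from 0 (vertical axis), with the 3 Sham libraries in blue and the 3 OVX libraries in red. OVX replicate 1 lies with Sham replicates 2 and 3 at the high end for Fos, Fosb, Junb and Dusp1, and above both for Fos. Egr3 is lower in every OVX library than in every Sham library.

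Among the FOS family, Fos (ENSMUSG00000021250) was counted with 1891, 3112 and 2741 reads in Sham and 3450, 1754 and 2236 reads in OVX. Its level was 79.8, 110 and 110 CPM in Sham and 141, 61.9 and 67.7 CPM in OVX. OVX replicate 1 was above every Sham library and the other 2 OVX libraries were below every Sham library, so the groups overlapped. Relative to Sham, the log2 fold change in OVX was -0.15 (standard error 0.31; edgeR quasi-likelihood test with Benjamini-Hochberg correction over all genes tested, adjusted p = 0.905). Its sign rested on single libraries, with -0.62 without OVX replicate 1, and with 0.06 or 0.02 when OVX replicate 2 or 3 was left out.

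Fosb (ENSMUSG00000003545), a close relative of Fos, had the largest SD of log2 CPM between libraries of a group among the 10 genes. It was counted with 751, 2244 and 1613 reads in Sham and 1765, 718 and 417 reads in OVX, or 31.7, 79.0 and 64.9 CPM and 71.9, 25.3 and 12.6 CPM. Sham replicate 1 lay with OVX replicates 2 and 3 at the low end, and OVX replicate 1 lay with Sham replicates 2 and 3 at the high end. The level of the highest library was 6.26 times that of the lowest. The log2 fold change was -0.68 (standard error 0.61, adjusted p = 0.815), and it was -1.63 without OVX replicate 1 and -0.27 without OVX replicate 3. The ratio of Fosb to Fos, which does not depend on the scaling of libraries, was 39.7, 72.1 and 58.8 Fosb reads per 100 Fos reads in Sham and 51.2, 40.9 and 18.6 in OVX. The groups overlapped in this ratio as well (two-sided exact permutation test, p = 0.3).

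Among the JUN family, which can pair with FOS proteins or with each other, Jun (ENSMUSG00000052684) was at 138, 135 and 176 CPM in Sham and 195, 131 and 114 CPM in OVX. As for Fos, the highest and the lowest libraries were both in OVX, and the log2 fold change was -0.03 (standard error 0.20). Leaving out Sham replicate 3 gave 0.10, leaving out OVX replicate 2 or 3 gave 0.05 or 0.13, and leaving out OVX replicate 1 gave -0.28. Junb (ENSMUSG00000052837) was at 133, 188 and 179 CPM in Sham and 180, 141 and 117 CPM in OVX, with a log2 fold change of -0.19 (standard error 0.18) that was -0.37 without OVX replicate 1 and -0.05 without OVX replicate 3. Jund (ENSMUSG00000071076), the family member that is made without a stimulus in most cells, was steady, at 214, 184 and 236 CPM in Sham and 236, 241 and 210 CPM in OVX. It was the only gene of the 10 with a positive log2 fold change, 0.12 (standard error 0.11, adjusted p = 0.814), which was 0.03 without Sham replicate 2, 0.06 with scaling on the general B cell genes and 0.20 without Sham replicate 3. Set against Jund within the same library, Fos gave 37.4, 59.6 and 46.8 reads per 100 Jund reads in Sham and 59.5, 25.7 and 32.2 in OVX.

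Levels of different genes were compared per length only for Jun, Junb and Ier2, which have a single RefSeq transcript and no intron. In CPM per kilobase, Junb had a mean of 90.7 in Sham and 79.4 in OVX, above Ier2 with 54.3 and 47.5 and Jun with 47.0 and 46.2.

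Of the EGR genes, Egr1 (ENSMUSG00000038418), a zinc finger factor induced by ERK signalling, was at 35.2, 48.9 and 39.2 CPM in Sham and 30.4, 40.8 and 34.5 CPM in OVX, with a log2 fold change of -0.22 (standard error 0.15) that was -0.34 without OVX replicate 2 and -0.08 without Sham replicate 2. Its lowest library was OVX replicate 1, the library in which Fos and Jun were highest. There were 21.7 Egr1 reads per 100 Fos reads in OVX replicate 1, against 66.0 and 50.9 in the other OVX libraries and 44.1, 44.6 and 35.6 in Sham.

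Egr3 (ENSMUSG00000033730), a relative of Egr1 induced by antigen receptor signals, was counted with 723, 1072 and 774 reads in Sham and 682, 755 and 938 reads in OVX. Its level was 30.5, 37.8 and 31.1 CPM in Sham and 27.8, 26.6 and 28.4 CPM in OVX. Every OVX library was below every Sham library, though by little next to Sham replicate 1. The means were 27.6 ± 0.887 CPM in OVX and 33.1 ± 4.01 CPM in the Sham libraries (SD, n = 3 each; exact permutation test, two-sided p = 0.1, the smallest possible). The log2 fold change was -0.26 (standard error 0.11; edgeR quasi-likelihood test, unadjusted p = 0.0413, adjusted p = 0.811), and it was -0.16 without Sham replicate 2. Egr3 was the single gene of the 10 whose groups did not overlap, where 8.44% of all tested genes had groups that did not overlap in either direction and 4.12% lay lower in OVX in this way.

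Of the remaining genes, Ier2 (ENSMUSG00000053560) was at 65.0, 99.7 and 83.2 CPM in Sham and 82.4, 70.0 and 64.4 CPM in OVX, with a log2 fold change of -0.19 (standard error 0.16) that was -0.04 without Sham replicate 2 and -0.34 without Sham replicate 1. Dusp1 (ENSMUSG00000024190), whose product ends the MAP kinase signal that induces it, was at 19.3, 29.8 and 29.3 CPM in Sham and 28.2, 15.7 and 16.1 CPM in OVX. Like Fosb, it was high in Sham replicates 2 and 3 and OVX replicate 1 and low in the others. Its log2 fold change was -0.39 (standard error 0.27, adjusted p = 0.811), which was -0.71 without OVX replicate 1 and -0.24 without OVX replicate 2.

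Atf3 (ENSMUSG00000026628) was scarce. It was counted with 17, 50 and 63 reads in Sham and 15, 11 and 24 reads in OVX, or 0.718, 1.76 and 2.53 CPM and 0.611, 0.388 and 0.727 CPM. The groups overlapped, since Sham replicate 1 was just below OVX replicate 3. The means were 0.575 ± 0.172 CPM in OVX and 1.67 ± 0.912 CPM in the Sham libraries (SD, n = 3 each; exact permutation test, two-sided p = 0.2). The log2 fold change of -1.53 was the lowest of the 10 genes (standard error 0.51; edgeR quasi-likelihood test, unadjusted p = 0.0184, adjusted p = 0.811), and it was -1.12 without Sham replicate 3 and -1.89 without Sham replicate 1.

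**Figure D2:**
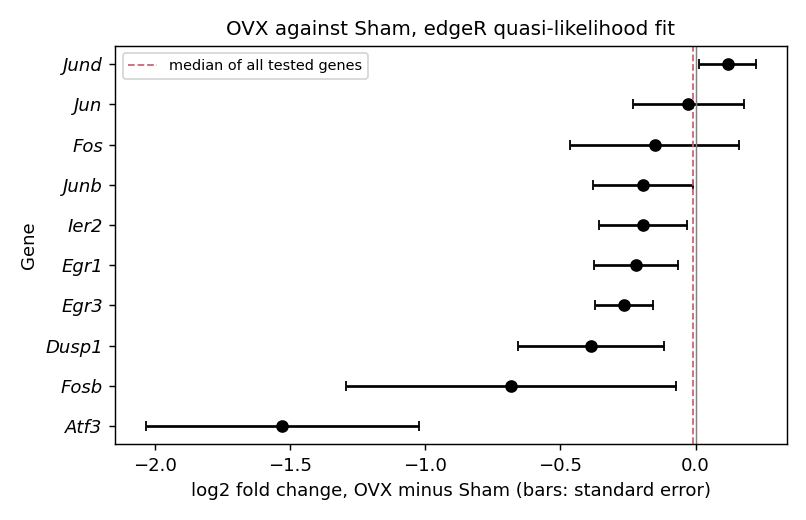
Log2 fold change of OVX against Sham for each of the 10 genes (points) with its standard error (bars) from edgeR's quasi-likelihood fit, 3 libraries per group. The dashed line marks the median of all 15305 tested genes, -0.01; 9 genes lie below 0 and Jund lies above it.

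None of the 10 genes was called, for which the adjusted p had to be under 0.05 with at least a 1.6-fold change. This rule was met by 0% of all 15305 tested genes with edgeR's quasi-likelihood test or limma-voom, and by 0 of the 27416 genes given to DESeq2. Before adjustment, 2 of the 10 had p under 0.05, Egr3 and Atf3, both lower in OVX, where 3.75% of all tested genes reached this in either direction and 2.28% lower in OVX. DESeq2 gave 1, Atf3, and limma-voom gave 2. The count was 4 without OVX replicate 1 (Fos, Fosb, Dusp1 and Atf3), 3 without Sham replicate 1 (Egr3, Ier2 and Atf3), 0 without OVX replicate 2 and 1 without any of the other 3 libraries. The log2 fold change was below 0 in 9 of the 10 genes and in 51.8% of all tested genes, with a median of -0.21 for the 10 and -0.01 for all tested. This median was -0.33 without Sham replicate 1 or without OVX replicate 1 and -0.10 without Sham replicate 2. Several of the 10 genes varied together, so their shared sign is not 10 separate observations.

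Several of the genes varied widely between libraries of the same group. The SD of log2 CPM between libraries of the same group had a median of 0.31 over the 10 genes, against 0.19 over all tested genes and 0.11 over the 7689 tested genes with a mean of at least 20 CPM. It was above the median of all tested genes for 8 of the 10. Fosb was at 1.02, higher than or equal to 97.6% of all tested genes, followed by Atf3 at 0.69 (90.8%), Fos at 0.50 (82.2%) and Dusp1 at 0.42 (77.2%). Jund, at 0.15 (39.8%), and Egr3, at 0.12 (32.1%), were the steadiest. Without OVX replicate 1 the median of the 10 was 0.24, and without OVX replicate 2 it was 0.35.

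**Figure D3:**
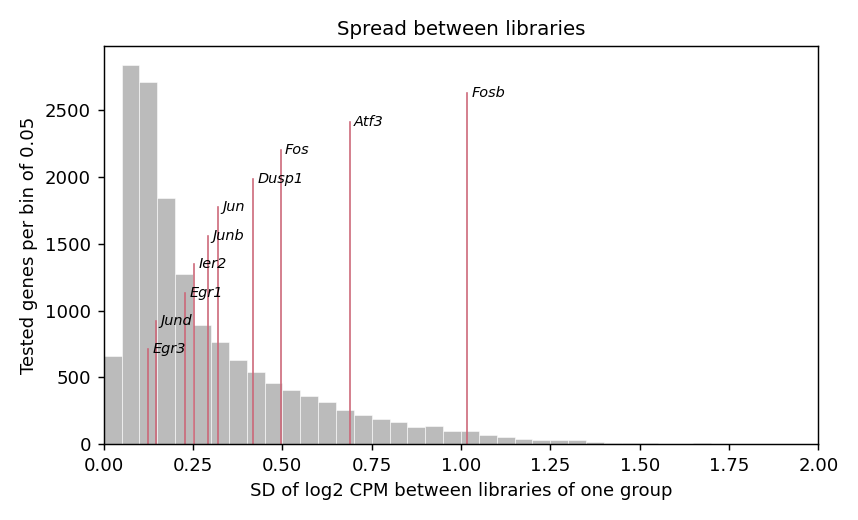
Histogram of the SD of log2 CPM between libraries of the same group over all tested genes (horizontal axis in log2 units, bins of 0.05, larger values placed in the last bin), with a red line for each of the 10 genes. Egr3 and Jund lie in the bulk of the genes, and Fosb lies far to the right at 1.02.

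The spread was shared by some of the genes. Over the 6 libraries, Pearson's r between Fosb and Junb was 0.97, between Fos and Dusp1 0.94, between Fosb and Dusp1 0.94 and between Junb and Ier2 0.93. Of the 45 pairs 10 were above 0.8 and 11 below 0, with a mean of 0.43 over the pairs of the 10 genes and 0.0006 over all pairs of tested genes. Positive and negative pairs cancel in the latter mean, so it does not show what another list of related genes would give. Jund had an r of 0.48 to Jun, its only positive value, -0.05 to Fos, -0.08 to Fosb and -0.83 to Egr3, and Egr1 had -0.12 to Fos. These values describe 6 points that share library and depth. For 5 of the 10 genes, Fos, Fosb, Junb, Ier2 and Dusp1, the 3 highest libraries were Sham replicates 2 and 3 and OVX replicate 1. Of all tested genes 14.1% had the same 3 libraries at the top. These 3 were picked as the highest in the mean scaled level of the same 10 genes, so the count of 5 is a description and not a test. Sham replicate 2 was the highest library for 6 of the 10 genes, and OVX replicate 2 or 3 was the lowest for 8.

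**Figure D4:**
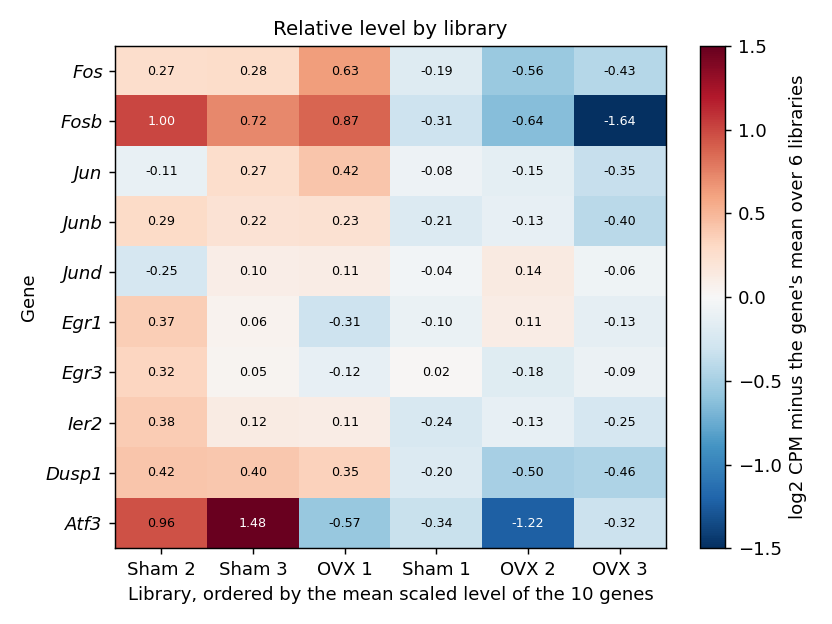
Level of each gene (rows) in each library (columns) as log2 CPM minus the mean of the gene over the 6 libraries, with red above and blue below that mean and the value in each cell. Libraries are ordered by the mean scaled level of the 10 genes, so that Sham replicate 1 falls among the OVX libraries; Fosb ranges widely, and Jund, Egr1 and Egr3 stay close to their means.

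To order the libraries by all 10 genes at once, each gene was centred and scaled over the 6 libraries and the mean was taken. This mean was -0.41, 0.73 and 0.71 in Sham, against 0.38, -0.52 and -0.89 in OVX. The 15 lists of other genes were ordered by their share of reads, a different measure, and 2 had exactly the reverse order of this mean. These were the 10 genes of pro-B and pre-B cells and the 18 AP-1 partners, the latter dominated by Bach2. By their own share of reads, the 10 immediate early genes were highest in OVX replicate 1, followed by Sham replicates 3, 2 and 1. OVX replicates 2 and 3 came last. On that measure neither list had exactly the reverse order. The share of 8 plasma cell genes differed from the order of the mean scaled level by a swap of neighbours. This share was 0.160% in Sham replicate 2, 0.156% in Sham replicate 3 and 0.138% in OVX replicate 1. Lower shares were 0.131% in OVX replicate 2, 0.127% in Sham replicate 1 and 0.115% in OVX replicate 3. Of these 8 genes, 4 were higher and 4 lower in OVX, with Jchain at a log2 fold change of -1.55 and Irf4 at 0.20. The order is thus that of the summed reads and not of each plasma cell gene. The order of the neutrophil share was Sham replicate 3, OVX replicate 1, Sham replicate 2, Sham replicate 1, OVX replicate 3 and OVX replicate 2. Erythroid genes (0.0193% to 0.0570%) had a log2 fold change below 0 in 11 of 11 tested, genes of T and NK cells (0.00440% to 0.00814%) in 11 of 12, and megakaryocyte genes (0.0143% to 0.0339%) in none of 9. The order of the monocyte and macrophage share began with Sham replicates 2 and 3, at 0.328% and 0.240%, and ended with OVX replicate 2, at 0.106%. The neutrophil marker S100a9 ranged from 294 CPM in OVX replicate 2 to 2488 CPM in Sham replicate 3. Rag1, the recombinase of pro-B and pre-B cells, ranged from 581 CPM in Sham replicate 2 to 1516 CPM in OVX replicate 2. With the neutrophil share as a covariate of the fit, chosen as an addition once the data had been seen, 6 of the 10 genes had a positive log2 fold change and the median was 0.02. With the pro-B and pre-B share, also added afterwards, these were 7 genes and 0.08. Only Egr1, Egr3 and Atf3 then remained below 0, and Atf3 was at -0.91. Whether these cells carried the transcripts was not tested.

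**Figure D5:**
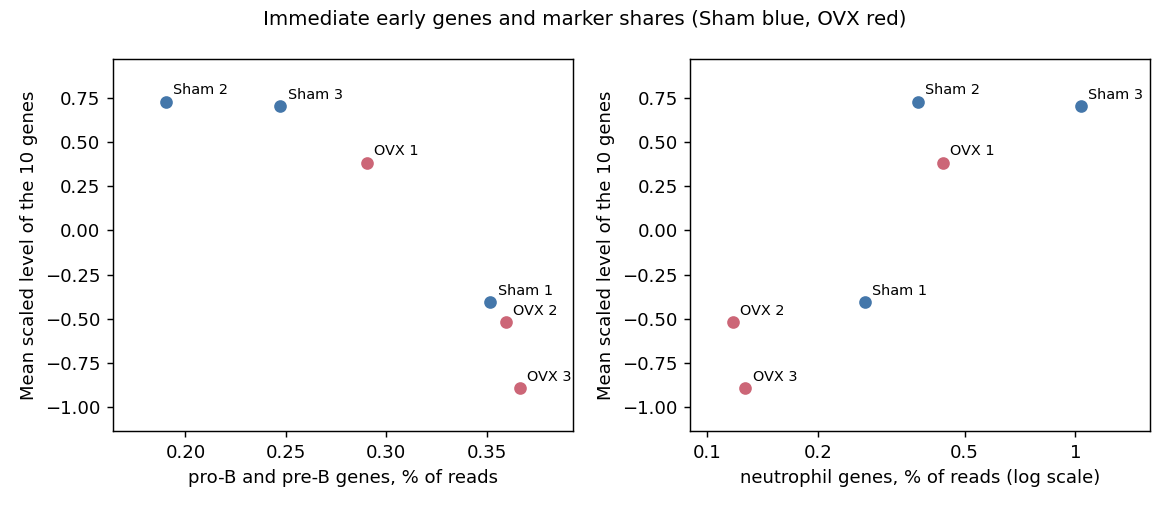
Mean scaled level of the 10 genes (vertical axis, no unit) against the share of reads of pro-B and pre-B genes (left, percent) and of neutrophil genes (right, percent on a log scale), with a point for each of the 6 libraries, Sham in blue and OVX in red. The mean of the 10 genes is lowest where the pro-B and pre-B share is highest, 0.367% in OVX replicate 3, and Sham replicate 1 lies near OVX replicates 2 and 3 in the left panel.

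The 5 genes outside the 10, with a mean of at least 5 CPM, whose log2 level over the 6 libraries was most like this mean were Tcaim, Lilra6, Pigb, Kcnab2 and Ahnak, with Pearson's r from 0.994 to 0.998. Ahnak, which encodes a very large scaffold protein, was at 61.4, 136 and 124 CPM in Sham and 107, 64.4 and 49.9 CPM in OVX. Lilra6, a receptor of the leukocyte immunoglobulin-like family, was at 6.50, 14.7 and 14.4 CPM in Sham and 11.6, 6.78 and 4.90 CPM in OVX. Of the 10376 genes compared, 293 had an r above 0.9, so the pattern of the 10 genes was held by many others.

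Genes of the same pathway did not follow a single direction. Of the 18 AP-1 partners, the other leucine zipper proteins that pair with or compete with AP-1, 17 were tested, with 5 higher and 12 lower in OVX and a median log2 fold change of -0.09. Bach2, a repressor of AP-1 targets that is abundant in developing B cells, was at 775, 526 and 652 CPM in Sham and 776, 887 and 827 CPM in OVX. Every OVX library was above every Sham library, though OVX replicate 1 was nearly level with Sham replicate 1. The log2 fold change was 0.35 (standard error 0.14, with unadjusted p = 0.0416 and adjusted p = 0.811 in edgeR's quasi-likelihood test). Batf3, with at most 1.16 CPM, had the lowest value of the list, -1.46 (standard error 0.93).

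Of 32 other immediate early genes 30 were tested, with 14 higher and 16 lower and a median of -0.01. Egr4 had 0 reads in every library, which with a floor of 3 reads per library allows a share of up to 1.26e-05% in the shallowest. Btg2, an antiproliferative gene, was at 498, 377 and 418 CPM in Sham and 481, 586 and 526 CPM in OVX, and Sgk1, a kinase gene, was at 93.7, 72.5 and 85.5 CPM and 95.6, 100.2 and 104 CPM. Their log2 fold changes were 0.30 (standard error 0.12) and 0.25 (standard error 0.10), both at an unadjusted p-value under 0.05 and an adjusted p of 0.811 in edgeR's quasi-likelihood test. Both were lowest in Sham replicate 2, where 6 of the 10 genes were highest. The lowest and the highest log2 fold changes of this list were those of Nr4a2, -0.71 (standard error 0.57), and Arc, 0.38 (standard error 0.23).

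All 31 genes of the upstream kinases, serum response and CREB factors and feedback regulators were tested, with 22 higher and 9 lower and a median of 0.10. None reached an unadjusted p-value under 0.05 in edgeR's quasi-likelihood test. The range was from Dusp4, -0.85 (standard error 0.52), to Dusp10, 0.28 (standard error 0.21), both phosphatases of MAP kinases like Dusp1.

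Of 20 genes of B cell activation and NF-κB 19 were tested, with 13 higher and 6 lower and a median of 0.05. Cd69, an early surface marker of lymphocyte activation, was at 33.4, 33.3 and 34.4 CPM in Sham and 41.2, 38.8 and 41.0 CPM in OVX. Every OVX library was above every Sham library, with a log2 fold change of 0.26 (standard error 0.07; edgeR quasi-likelihood test, unadjusted p = 0.00851, adjusted p = 0.811). Cd69 lay higher in OVX, and Egr3, which also responds to the antigen receptor, lay lower, but neither was called. Whether receptor signalling differed between the groups was not tested. Nfkbia, the inhibitor that NF-κB itself induces, was at 0.23 on this scale (standard error 0.09; edgeR quasi-likelihood test, unadjusted p = 0.0438), and Rgs2, a regulator of G protein signalling, had 0.39 (standard error 0.25). Rgs1 was at -0.93 (standard error 0.39, unadjusted p = 0.0466 in the same test). The chemokine gene Ccl4, with at most 1.21 CPM, was at -2.09 (standard error 0.45, unadjusted p = 0.00214 in the same test). Every OVX library was below every Sham library for Ccl4. Both Rgs1 and Ccl4 had an adjusted p of 0.811 in edgeR's quasi-likelihood test.

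Heat shock genes are also induced by the handling of cells. Of 13 listed, 12 were tested, with 7 higher and 5 lower and a median of 0.07. Hspa1b, which encodes inducible HSP70, was at 22.7, 2.64 and 4.14 CPM in Sham and 8.96, 13.4 and 22.3 CPM in OVX. Its highest libraries, Sham replicate 1 and OVX replicate 3, were those in which Fosb was at 31.7 and 12.6 CPM. In OVX replicate 2, where Hspa1b was at 13.4 CPM, Fosb was at 25.3 CPM. The lowest library for Hspa1b, Sham replicate 2, was the highest for Fosb. Whether handling differed between the libraries was not tested. Hspa1a, a near-identical copy with which reads may be shared, was at 4.22, 0.282 and 0.523 CPM in Sham and 1.91, 1.98 and 3.24 CPM in OVX. The log2 fold change of Hspa1b was 0.60 (standard error 0.77) and that of Bag3, a cochaperone gene, was -0.60 (standard error 0.36). Hspd1, the mitochondrial chaperonin gene, was at 244, 243 and 248 CPM in Sham and 222, 220 and 221 CPM in OVX, with a log2 fold change of -0.15 (standard error 0.06; edgeR quasi-likelihood test, unadjusted p = 0.0325, adjusted p = 0.811).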

How the data were processed

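The 3 OVX and 3 Sham RNA-seq libraries of B cells, grouped by the sample labels, were used. HIF-1α ChIP-seq was not analysed here. The authors deposited raw read counts per Ensembl gene. The submitters' processing notes name CASAVA, Bowtie 0.12.2 and mm10, and the counting tool, annotation and strand setting are not given in the sources used here. Symbols matched 54409 of 54532 identifiers. Antisense or overlapping genes could share reads.

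R 4.3.3 and edgeR 4.0.16 were used for the counts (filterByExpr by group, TMM, quasi-likelihood test, Benjamini-Hochberg adjustment). Calls needed an adjusted p under 0.05 with at least a 1.6-fold change. The standard error is the log2 fold change divided by the square root of F. Log2 CPM used a prior count of 2. For single values the exact permutation test was two-sided. Intervals and floors cover counting error only. Alternatives were DESeq2 1.42.0 and limma-voom (limma 3.58.1), other scalings and filters, a replicate block, each library left out, and the added covariates. The edgeR, DESeq2 and limma-voom fits were checked on simulated counts.

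The members and lists were chosen with earlier results of these data known. The text names the 10 genes, the extremes of 5 related lists with every gene there at an unadjusted p under 0.05, the 5 genes most like the 10, and marker genes. Hspa1a and Egr4 are outside this rule. Hspa1a was named after its values were seen, as the near-identical copy of Hspa1b, and Egr4 for having no reads in any library. Promoters are from RefSeq GRCm38.p6.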

Additional observations from a re-analysis of the deposited data

How the results depend on the processing

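No gene was called in any alternative, libraries left out and covariates included. The count of immediate early genes with p under 0.05 before adjustment was 2, against 1 with DESeq2, 1 with the replicate block, 1 with the neutrophil covariate (Jun, 0.32 and thus higher in OVX), 0 with the pro-B and pre-B covariate, and 0 (without OVX replicate 2) to 4 (without OVX replicate 1) when a library was left out. The count with a positive log2 fold change was 1, with 1 to 3 over the fits without a library, 6 with the neutrophil covariate and 7 with the pro-B and pre-B covariate, whose medians were 0.0199 and 0.0826 against -0.21. With the neutrophil covariate the sign turned for Fos (0.31), Fosb (0.0065), Jun (0.32), Junb (0.0696) and Dusp1 (0.0334), and with the pro-B and pre-B covariate for Fos (0.21), Fosb (0.13), Jun (0.10), Junb (0.10), Ier2 (0.12) and Dusp1 (0.0152). Without a library, Fos ranged from -0.62 to 0.0582 and Jun from -0.28 to 0.13. The other 7 genes below 0 and Jund kept their sign in every alternative other than the covariates, which were added after the data were seen. The cause of these shifts was not tested.

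Shared replicate numbers showed no pairing: across genes, the correlation between same-numbered libraries, each as its deviation from the group mean, was -0.410, -0.189 and -0.279. Between libraries of different numbers it ranged from -0.197 (Sham replicate 3 with OVX replicate 2) to 0.433 (Sham replicate 3 with OVX replicate 1). A batch not marked by the replicate number was not tested. With the replicate block 206 of all tested genes had an unadjusted p under 0.05, against 574, and Egr3 was no longer among them. This count over all tested genes was 2698 without Sham replicate 1, 988 without OVX replicate 1, 233 without OVX replicate 2, 360 and 286 when Sham replicate 2 or 3 was left out, and 411 for OVX replicate 3. Atf3 rests on 11 to 63 reads per library.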
